A study of Mus musculus with 2084 samples.

Results

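The 7 genes described here encode the receptors for type I interferons (Ifnar1 and Ifnar2), the receptors for interferon gamma (Ifngr1 and Ifngr2) and the Janus kinases bound to them (Jak1, Jak2 and Tyk2). They were chosen by name, as the known receptor chains and kinases of both interferon families. Their values were not a criterion, but earlier results of these data were known. All 7 were found by symbol among 35606 gene identifiers of the main RNA count table, and all 7 passed the filter on low counts in each test across replicates.

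Interferons are cytokines released in infection and inflammation. Type I interferons such as interferon beta bind a receptor made of IFNAR1, which carries the kinase TYK2, and IFNAR2, which carries JAK1. Interferon gamma binds IFNGR1, the ligand-binding chain that carries JAK1, together with IFNGR2, which carries JAK2. Once the chains are brought together, the kinases phosphorylate each other and the receptor tails, and STAT proteins docked there enter the nucleus and switch on interferon-stimulated genes. JAK1, JAK2 and TYK2 also serve receptors of other cytokines, growth hormone and leptin.

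Smart-seq3 libraries were made from individual cells of adult mice, covering neural stem cells (NSCs), their progeny and astrocytes of the ventricular-subventricular zone (vSVZ, the niche that lines the lateral ventricle), striatum, cortex and olfactory bulb. The cells carried replicate letters pA to pM, each of 1 or more mice, and were sorted from individual or pooled animals. Knockout cells (pJ) were labelled IFN(A/G)R KO when naive and TiCY-IFN(A/G)R KO at 2 days after ischemia, and the labels do not name the deleted receptor chains or give the tamoxifen status of the naive ones. TiCY cells came from naive mice (pM) and from mice 2 days (pI) or 21 days (pH) after bilateral occlusion of the carotid arteries. TiCY mice received tamoxifen at 2 months of age, which switches on eYFP by Cre in cells that express Tlx, an NSC gene, and in their progeny, and ischemia followed 2 weeks later. Wild-type (WT) naive cells came from vSVZ (pA to pE), striatum (12 cells of pE) and olfactory bulb with the late migratory stream (pF), and a further WT set (pL), cortical and striatal astrocytes, carried a TCF-Lef reporter. WT mice had neither tamoxifen nor ischemia. The pE cells all carry a tissue label that joins striatum and vSVZ, and their NSC-sorted cells were placed in the vSVZ from their titles. The sources used here give no strain, and an age for TiCY mice alone.

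Of 2084 labelled cells, 1981 were in the main table and were used, in 40 groups. A cell held 3771 to 1842234 counts (median 160621) over a median of 4994 genes. No cell name occurred more than once and no pair of cells had equal counts. Cells of pD had few genes, with medians of 3169 to 4090 in the vSVZ types, against 6220 to 10495 in the other WT replicates used for those types. Neuroblast markers set neuroblasts apart from qNSC1 but not from TAPs. In WT replicates the 6 neuroblast markers (Dcx, Dlx1, Sp8, Stmn2, Tubb3, Nrxn3) summed to 2201 to 8608 CPM (counts scaled to a common library total) in neuroblasts and 1030 to 4044 CPM in TAPs, against 11.3 to 127 in qNSC1. Since the type names may have been drawn from the very RNA tested, p-values between types are a description. The surface sorts were made before sequencing.

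In the WT lineage, Jak1 and Ifngr1 were high in quiescent cells and low in neuroblasts, the migrating young neurons. Jak2 ran the other way, with its highest means in oligodendrocytes and neuroblasts. No member passed the test between types next to each other in order of mean level. Type by type, values below are TMM-normalised CPM, each from the pooled cells of 1 type and 1 replicate, for quiescent stem cells that are labelled qNSC1 and qNSC2, active stem cells (aNSC), transit-amplifying progenitors (TAP), neuroblasts and oligodendrocytes.

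**Figure D1:**
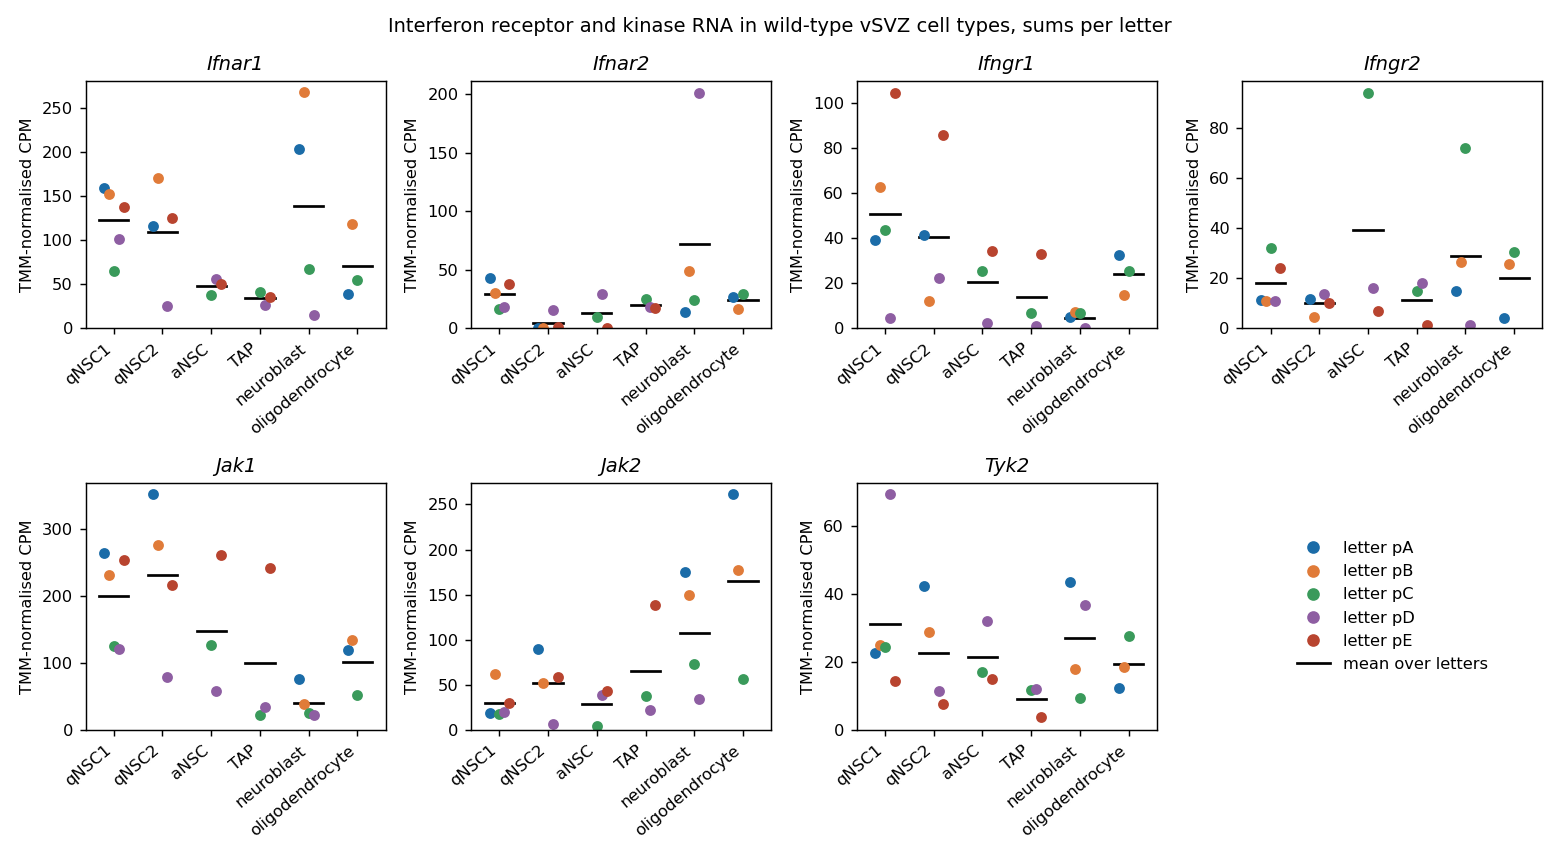
TMM-normalised CPM (y axis, linear, starting at 0) of each gene in 6 WT vSVZ cell types (x axis, in lineage order, oligodendrocytes last). Points are sums of 1 replicate letter and black lines are means over letters. Jak1 and Ifngr1 lie low in neuroblasts, Jak2 is highest on average in oligodendrocytes, and Ifnar2 has a single high neuroblast point (201 CPM, pD).

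Ifnar1, the chain that carries TYK2, averaged 123 ± 39.3 CPM in qNSC1 (SD, n = 5), 109 ± 60.7 in qNSC2 (n = 4), 48.1 ± 9.06 in aNSC (n = 3), 34.4 ± 7.65 in TAPs (n = 3) and 138 ± 117 in neuroblasts (n = 4). The neuroblast replicates ran from 14.7 CPM in pD to 267 in pB and spanned the range of every other type. Oligodendrocytes had 70.8 ± 41.9 CPM (n = 3).

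Ifnar2, the ligand-binding chain that carries JAK1, had 43.5, 30.3, 16.2, 18.7 and 38.0 CPM in qNSC1 of pA to pE. In qNSC2 it had 0, 0.360, 16 and 0.926 CPM in pA, pB, pD and pE. Each of the 4 shared replicates was lower in qNSC2 than in qNSC1 and the groups did not overlap, but the difference of 4.33 ± 7.81 against 29.3 ± 11.8 CPM did not pass (log2 fold change -2.74, SE 1.19, edgeR adjusted p = 0.49). The qNSC2 sums of pA and pB rest on 3 cells each and that of pE on 9, against 34 cells in pD. Larger qNSC2 sums of naive TiCY (pM) and KO (pJ) cells, normalised in a fit of their own, were not low. They had 41.4 CPM over 39 cells and 43.1 CPM over 31 cells. Means in aNSC, TAPs and oligodendrocytes were 13, 20.0 and 24.3 CPM. Neuroblasts had 14, 49.1, 24.6 and 201 CPM in pA to pD, so their mean of 72.3 rests on pD, a sum of 7 cells. Ifnar2 shares 315 exon bases with Gm21970 on the same strand, so some of its reads may have been counted either way.

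Ifngr1, the ligand-binding chain for interferon gamma, had 39, 62.6, 43.6, 4.71 and 104 CPM in qNSC1 of pA to pE and 41.2, 12.2, 22.5 and 85.7 CPM in qNSC2 of pA, pB, pD and pE. It averaged 20.8 ± 16.4 CPM in aNSC, 13.7 ± 17 in TAPs and 24.1 ± 8.94 in oligodendrocytes (n = 3 each). Neuroblasts had 4.99, 7.42, 6.77 and 0 CPM in pA to pD. Its partner Ifngr2 did not follow it. Ifngr2 means were 18.0 CPM in qNSC1, 10.2 in qNSC2, 39.3 in aNSC, 11.6 in TAPs, 28.9 in neuroblasts and 20.1 in oligodendrocytes, with pC the highest in each type it was measured in but TAPs.

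Jak1, the kinase shared by both receptors, had 265, 231, 126, 122 and 255 CPM in qNSC1 of pA to pE and 353, 277, 79.3 and 216 CPM in qNSC2 of pA, pB, pD and pE. In aNSC it had 127, 57.9 and 262 CPM and in TAPs 23.3, 34.0 and 242 CPM in pC, pD and pE, so pE stood above the other replicates in both types. Neuroblasts had 77.2, 39.8, 26.0 and 22.1 CPM in pA to pD, and oligodendrocytes 119, 135 and 52.3 CPM in pA to pC. Each qNSC1 replicate was above each neuroblast replicate.

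Jak2, the kinase on IFNGR2, had 19, 62.0, 18.4, 20.4 and 30.6 CPM in qNSC1 of pA to pE, against 175, 149.9, 73.0 and 34.4 CPM in neuroblasts of pA to pD and 261, 177 and 56.4 CPM in oligodendrocytes of pA to pC. It averaged 52.1 ± 34.3 CPM in qNSC2 (n = 4), 28.8 ± 21.2 in aNSC and 65.9 ± 63.0 in TAPs (n = 3 each). Tyk2, the kinase on IFNAR1, stayed between 9.28 CPM on average in TAPs and 31.2 in qNSC1, with SDs of 4.77 and 21.8.

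Ordered by mean, no pair of neighbouring types passed for any of the 7 genes (0 of 35 pairs, lowest edgeR adjusted p = 0.474; 0 of 35 also with the replicate letter as a block). Over all 6 types at once, 0 of 7 genes passed (edgeR adjusted p 0.115 to 0.638), beside 24.7% of all genes. DESeq2 called 3 of the 7. With the replicate letter as a block, which fits because a letter marks shared mice, 3 passed: Jak1 (adjusted p = 0.0034), Ifngr1 (0.024) and Ifnar2 (0.049). Over all 105 pairs of types and genes, 3 passed, and 9 with the block. With the block Ifnar2 passed in neuroblasts (log2 fold change 4.56, adjusted p = 0.014) and in oligodendrocytes (4.18, 0.037) against qNSC2. The low qNSC2 sums given above hold 3 to 9 cells each, and the sum of 34 cells (pD) had 16 CPM. Jak1 in neuroblasts against qNSC2 passed without it (-2.48, 0.037) and with it (-2.10, 0.0029).

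Per length, the gene with the highest mean level changed along the lineage, but single replicates often had another order. Dividing mean CPM by exon length in kilobases (kb), Jak1 ranked first of the 7 in qNSC1 (27.7 CPM per kb), qNSC2 (32.0), aNSC (20.6) and TAPs (13.8). In aNSC and TAPs this rank rests on pE, a sum of 3 cells in each, where Jak1 had 36.3 and 33.5 CPM per kb. In pC and pD another member came first in both types, for instance Ifngr2 at 25.04 against 17.6 for Jak1 in aNSC of pC, and Ifnar2 at 7.49 against 3.22 in TAPs of pC. In neuroblasts Ifnar1 (23.3 CPM per kb), Ifnar2 (21.7) and Jak2 (21.5) came first, with Jak1 at 5.71 and Ifngr1 last at 1.68. The place of Ifnar2 there rests on pD, and each neuroblast replicate had another gene first. These were Jak2 in pA (34.7 CPM per kb), Ifnar1 in pB (45.0), Ifngr2 in pC (19.2) and Ifnar2 in pD (60.5). In oligodendrocytes Jak2 came first at 32.8 CPM per kb. No test was made between genes.

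**Figure D2:**
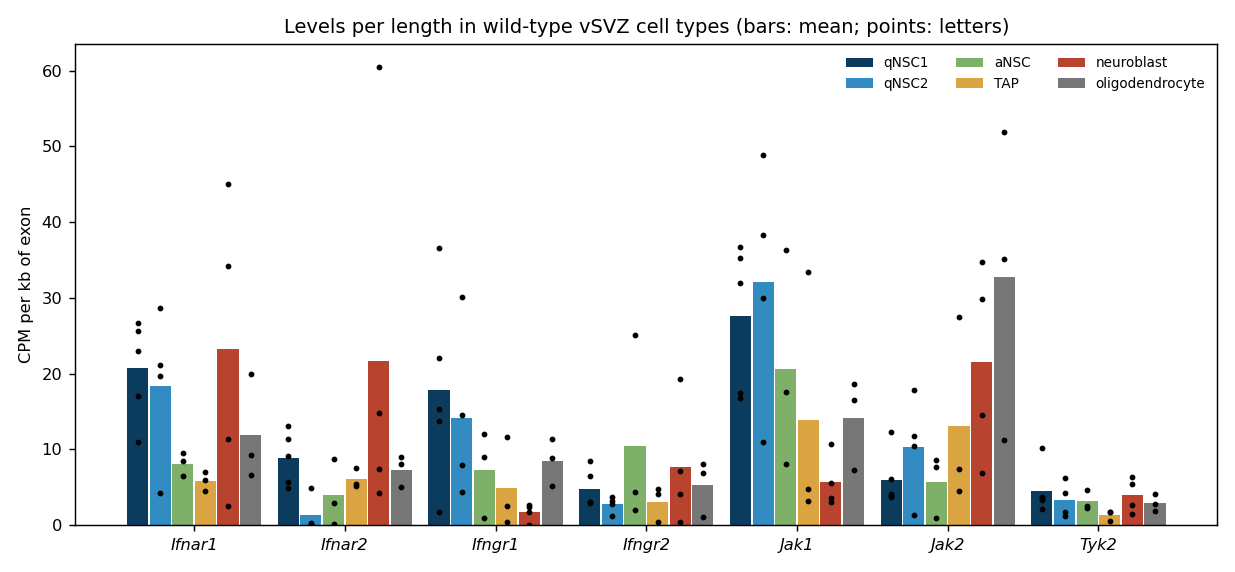
CPM per kb of exon (y axis, linear, from 0) for the 7 genes (x axis) in 6 WT vSVZ types (colours). Bars are means over replicate letters and points are single letters. Jak1 has the tallest mean bars in the stem cell types, in aNSC through a single letter (pE), whereas in neuroblasts Jak1 (5.71) and Ifngr1 (1.68) are low.

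Jak1 and Ifngr1 were lower in neuroblasts than in qNSC1, and the other 5 genes did not pass. Jak1 averaged 41.3 ± 25.1 CPM in neuroblasts (SD, n = 4) and 199.9 ± 70.4 CPM in qNSC1 (n = 5), with a log2 fold change of -2.27 (SE 0.70, edgeR adjusted p = 0.037). Ifngr1 averaged 4.795 ± 3.36 CPM in neuroblasts and 50.8 ± 36.5 CPM in qNSC1 (log2 fold change -3.33, SE 1.09, adjusted p = 0.048). Both were lower in 4 of 4 shared replicates. For Jak1 the groups did not overlap, and for Ifngr1 they overlapped through qNSC1 of pD (4.71 CPM). In this comparison 12.4% of all genes were called, 7.7% as lower, beside 2 of 7 here. Median log2 fold changes were 0.17 for the 7 genes and -0.17 for all genes.

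Both calls are close to the threshold. Leaving out pA, pB, pC or pE in turn ended both (0 of 7 called each time), with log2 fold changes of -1.98 to -2.49 for Jak1 and -2.73 to -3.52 for Ifngr1, and leaving out pD kept both. With the replicate block the adjusted p was 0.00092 for Jak1 and 0.012 for Ifngr1. Within pA, pB and pE the log2 fold change was -1.97 for Jak1 (adjusted p = 0.018) and -3.36 for Ifngr1 (0.058), and within pC and pD it was -2.31 (0.25) and -2.62 (0.54).

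The lower sums were also seen as fewer cells with a count. Each cell was thinned to 50000 counts, which kept 77 of 79 neuroblasts and 110 of 118 qNSC1 cells, and the share of cells expected to keep a count was computed. For Jak1 it was 58.7%, 31.4%, 34.8% and 14.3% of neuroblasts of pA to pD, against 99.7%, 94.6%, 80.6%, 40.5% and 96.1% of qNSC1 cells of pA to pE. Without thinning the shares were 70.0%, 48.0%, 37.0% and 14.3% of neuroblasts, and 100%, 100%, 88.2%, 40.4% and 100% of qNSC1 cells. For Ifngr1 the thinned shares were 5.93%, 15.7%, 13.9% and 0% of neuroblasts and 45.0%, 56.4%, 43.4%, 6.89% and 63.3% of qNSC1 cells. Cells of pD were low in both types.

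Jak2 was higher in neuroblasts in 4 of 4 shared replicates, at 108 ± 65.4 CPM against 30.1 ± 18.5 CPM in qNSC1, but did not pass (log2 fold change 1.85, SE 0.76, edgeR adjusted p = 0.12). With the replicate block it passed (adjusted p = 0.039), as it did within pA, pB and pE (0.027). In oligodendrocytes Jak2 averaged 165 ± 103 CPM (n = 3), against 30.1 ± 18.5 CPM in qNSC1, and was higher in 3 of 3 shared replicates (log2 fold change 2.45, SE 0.81, adjusted p = 0.055; 0.038 with the replicate block, 0.016 by DESeq2). None of the 7 passed between oligodendrocytes and qNSC1 (edgeR, 11% of all genes called).

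The surface sorts were compared without use of type names, but they share cells with the type sums and are no separate support. The NB sort of pA, pB and pC held 19, 21 and 27 cells, of which 19, 21 and 22 were also in the neuroblast sums, and 7, 7 and 13 of the 9, 15 and 17 NSC-sorted cells were in the qNSC1 sums. Sorted with antibodies from pA, pB and pC, the NB sort had 5.59, 8.15 and 6.30 CPM of Ifngr1, against 55.1, 28.4 and 56.1 CPM in the NSC sort, and it passed there (log2 fold change -2.79, SE 0.62, edgeR adjusted p = 0.012). Jak1 had 85.8, 35.9 and 22.5 CPM in the NB sort and 307, 158 and 115 CPM in the NSC sort (log2 fold change -2.01, SE 0.64, adjusted p = 0.061). Jak2 had 189, 170.4 and 75.6 CPM in the NB sort and 42.4, 73.4 and 19.6 CPM in the NSC sort (log2 fold change 1.68, SE 0.68, adjusted p = 0.13). For each of the 3 genes the NB and NSC replicates did not overlap, closest for Jak2 (75.6 and 73.4 CPM). Of all genes, 11.8% were called, 8.16% as lower. With the replicate block 3 of the 7 passed, Ifngr1, Jak1 (adjusted p = 0.0035) and Jak2 (0.014), and leaving out any of the 3 replicates ended the Ifngr1 call (adjusted p 0.068 to 0.158).

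In the OLIGO sort Jak2 had 299, 184 and 57.4 CPM, against 42.4, 73.4 and 19.6 CPM in the NSC sort (log2 fold change 1.99, SE 0.68, edgeR adjusted p = 0.12; 0.016 with the replicate block). Ifngr1 was lower in 3 of 3 replicates of the OLIGO sort, 18.5 ± 6.62 against 46.5 ± 15.7 CPM in the NSC sort (adjusted p = 0.25). None of the 7 passed in the OLIGO sort, where 6.1% of all genes were called, or in the ASTRO sort (0.0906%). In the ASTRO sort Jak1 averaged 134 ± 47.1 CPM and Ifngr1 25.8 ± 9.84 CPM, against 193 ± 101 and 46.5 ± 15.7 CPM in the NSC sort (n = 3 each).

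Naive TiCY and KO cells repeated the Jak1 difference in other mice. Their neuroblasts had 8.78 CPM in TiCY (pM) and 8.05 in KO (pJ), against 371 and 192 CPM in qNSC2 of the same letters (log2 fold change -5.06, SE 0.86, edgeR adjusted p = 0.0025, n = 2 each), which compares types across both genotypes. This was the 1 call of 7, beside 9.99% of all genes called, 8.6% as lower, and the median log2 fold change over all genes was -0.86. Ifngr1 had 6.28 CPM in TiCY neuroblasts, against 11.1 CPM in TiCY qNSC2, and Jak2 58.6 against 60.9 CPM. In the KO, Jak2 had 0 CPM in neuroblasts and 16.3 in qNSC2, so in neither letter was it higher in neuroblasts, unlike the WT sums. The neuroblast sums held 15 TiCY and 8 KO cells.

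**Figure D3:**
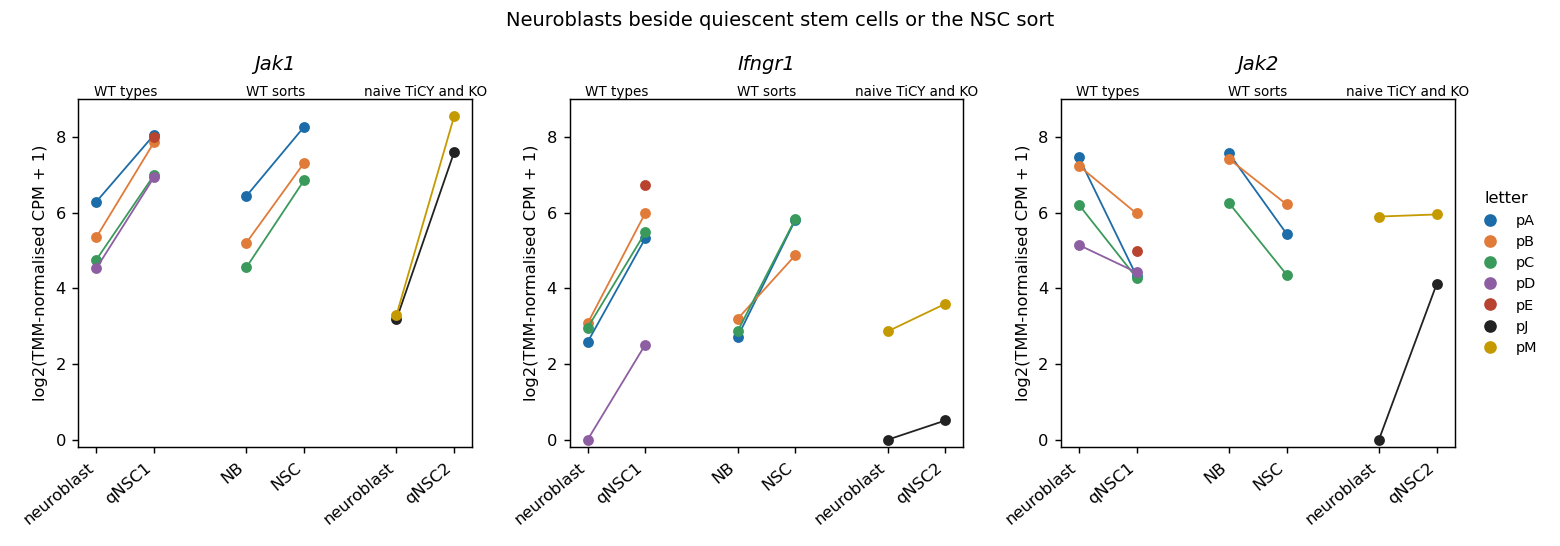
log2(TMM-normalised CPM + 1) (y axis) of Jak1, Ifngr1 and Jak2 in neuroblasts or the NB sort (left of each pair) and in qNSC1, the NSC sort or qNSC2 (right of each pair). Each point is 1 replicate letter (colour) and lines join sums of the same letter. Every line rises to the right for Jak1 and Ifngr1, and the WT lines of Jak2 fall to the right.

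Between neighbouring stages no member passed. This holds for qNSC2 against qNSC1 (0.0805% of all genes called by edgeR), aNSC against qNSC2 (0.194%), TAP against aNSC (0% called, with 937 genes at an unadjusted p under 0.05 and 171 called by DESeq2) and neuroblast against TAP (0.0939%). After Ifnar2 in qNSC2 against qNSC1 (log2 fold change -2.74), the changes of largest size were Ifnar1 and Ifnar2 in neuroblasts against TAPs, at 138 ± 117 against 34.4 ± 7.65 CPM (log2 fold change 2.01, adjusted p = 0.40) and 72.3 ± 87.4 against 20.0 ± 4.28 CPM (1.84, 0.66), and Ifngr2 in aNSC against qNSC2 (1.94, 0.40). In the naive fit, qNSC2 against vSVZ astrocytes (0.0125% of all genes called) and striatal against vSVZ astrocytes (0% by edgeR, with 141 genes at an unadjusted p under 0.05 and 9 called by DESeq2) also gave 0 of 7. Jak1 there had 371 and 192 CPM in qNSC2 and 199 and 116 CPM in striatal astrocytes, against 284 and 182 CPM in vSVZ astrocytes (TiCY and KO in each pair).

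Over the 22 WT type sums, the members' profiles were unlike each other apart from 1 pair. Pearson's r of log2(CPM + 5) was 0.76 between Ifngr1 and Jak1 and between -0.58 (Ifnar2 and Jak1) and 0.42 (Ifnar1 and Jak1) for the other pairs. The sums share replicate letters, sequencing depth and type composition, so r is a description. Among 8677 genes with a mean of 20 CPM or more, the profiles most like Jak1 were those of Adk (r = 0.89), Cd164 (0.89) and Hibadh (0.88). For Ifngr1 they were Trps1 (0.89), Atp2a2 (0.88) and Tspan3 (0.88), and for Jak2 Slc36a4 (0.87), Katnal1 (0.83) and Gtf3c1 (0.82). Ifnar1 was closest to Klf12 (0.92), Abi1 (0.90) and Tanc2 (0.89), and Ifnar2 to Ipmk (0.78), Luc7l2 (0.77) and Ncam1 (0.74). Ifngr2 was closest to Pan3 (0.80), Gm14667 (0.76) and Pecam1 (0.75). Tyk2 had no profile above 0.65, with Colec12 and Vps11 at that value and Dis3l at 0.64.

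The genes lie at 5 places in the genome (GRCm38, GENCODE M21). Ifnar2 (chr16:91372783-91405589), Ifnar1 (chr16:91485238-91507441) and Ifngr2 (chr16:91547072-91565623) follow each other on the plus strand of chromosome 16. Ifngr1 is at chr10:19591949-19610229 and Jak2 at chr19:29251828-29313080, both on the plus strand. Jak1 is at chr4:101152367-101265282 and Tyk2 at chr9:21104068-21131243, both on the minus strand. Tyk2 exons share 554 bases with 1700084C06Rik and Jak1 exons 4 bases with Raver2 on the opposite strand, and the sources used here do not give the strand setting of the counting.

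The sequence just upstream of the annotated gene is shown for Jak1 and Ifngr1 because they were the members that were low together in neuroblasts. Both are from RefSeq (GRCm38.p6), read 5′ to 3′ along the gene's strand, and trimmed to the bases outside the annotated gene, which are chr4:101265283-101265473 (minus strand) for Jak1 and chr10:19591699-19591948 (plus strand) for Ifngr1. Capitals mark matches to the GC box (GGGCGG or CCGCCC) and to the CCAAT box (CCAAT or ATTGG), with both strands searched.
Jak1: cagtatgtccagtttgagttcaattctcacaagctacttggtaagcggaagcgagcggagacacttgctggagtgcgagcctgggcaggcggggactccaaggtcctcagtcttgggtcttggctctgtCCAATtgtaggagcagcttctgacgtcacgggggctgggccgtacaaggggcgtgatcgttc
Ifngr1: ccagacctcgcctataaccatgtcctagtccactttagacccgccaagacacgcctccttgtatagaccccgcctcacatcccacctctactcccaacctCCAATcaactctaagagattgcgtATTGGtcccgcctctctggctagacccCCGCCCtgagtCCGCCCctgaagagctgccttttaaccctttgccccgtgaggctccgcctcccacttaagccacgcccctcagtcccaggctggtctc

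The Jak1 window of 191 bases held 1 CCAAT match and 0 GC boxes, and the Ifngr1 window of 250 bases held 2 of each. Of 32851 RefSeq promoters, 26.9% held a CCAAT match and 23.1% a GC box in 191 bases, and 33.8% and 32.7% in 250 bases. The GAS motif of STAT dimers (TTCNNNGAA) had no match in either window. It occurred in 5.54% of promoters at 191 bases and 7.02% at 250 bases. The core of the interferon-stimulated response element (GAAA, 2 bases of any kind and GAAA again, on either strand) had no match either, beside 2.34% and 2.98% of promoters. Among all 7 members, only the Ifnar2 window held a GAS match (1). All 7 promoters were matched by symbol.

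Genes around the receptors were described from lists of the pathway. The list of genes that share the kinases holds chains of receptor complexes that use them, and the kinase Jak3. In neuroblasts against qNSC1 its median log2 fold change was -2.52 beside -0.17 for all genes, of which 12.4% were called and 7.7% lower. By edgeR, 3 of its 10 tested genes were lower and none higher. They were Osmr, the oncostatin M receptor (0.148 ± 0.295 against 25.8 ± 27.5 CPM), Cntfr, the receptor chain for ciliary neurotrophic factor (13 ± 9.43 against 72.3 ± 22.9 CPM), and Ghr, the growth hormone receptor (0.00987 ± 0.0197 against 65.7 ± 25.3 CPM). Of 12 tested negative regulators 1 passed, Cish, a SOCS-family inhibitor (27.3 ± 19.5 CPM in neuroblasts, 0.690 ± 0.643 in qNSC1, adjusted p = 0.045). None of 7 tested signal transducers passed.

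Of 13 tested interferon-stimulated genes, 3 were lower in neuroblasts and none higher, beside the 7.7% of all genes. These were Gbp7, a guanylate-binding protein (0.425 ± 0.478 against 34.7 ± 15.3 CPM), Ifit3 (0.0296 ± 0.0592 against 10.1 ± 5.80 CPM) and Igtp (0 CPM in all 4 neuroblast replicates, against 2.59 ± 3.07 in qNSC1). In the NB sort, where 11.8% of all genes were called, only Ghr of the same lists was (0 CPM in 3 of 3, against 41.3 ± 35.6 in the NSC sort). In naive neuroblasts against qNSC2, Ghr, Cntfr, Il6st (the shared receptor chain gp130) and Gbp7 were lower, beside 8.6% of all genes. Of 21 listed ligands 3 were in the table and none passed the filter on low counts.

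The knockout was read first in the receptor genes themselves. Every KO cell carries the letter pJ, so knockout and replicate cannot be told apart, and these groups of 1 letter have no test. Values are CPM of summed counts with exact 95% Poisson intervals, which cover counting error only, and a gene is past the fold where the log2 ratio of CPM + 5 is 1 or more in size and the intervals are apart. Ifngr1 was nearly absent in KO cells. It had a count in 16 of 511 KO cells (3.13%), against 271 of 865 TiCY cells (31.3%), and reached at most 3.13 CPM in the 15 KO groups, with 8 of them at 0. In naive vSVZ astrocytes it had 0 counts in 79 KO cells, which allows a share of cells with a count of up to 3.80% (3 of 79) and sets no limit on cells that express it, against 27.8 CPM (25.3 to 30.3) in 114 TiCY cells, at least 109-fold lower when the KO sum is put at 3 counts.

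Ifnar1 was reduced but not absent. It had a count in 98 of 511 KO cells (19.2%), against 417 of 865 TiCY cells (48.2%). After thinning, it was expected to keep a count in 9.58% of naive KO and 37.1% of naive TiCY Glast cells. At 2 days it was expected to keep one in 19.4% and 49.5%. In naive vSVZ astrocytes it had 9.22 CPM (7.57 to 11.1) in KO and 46.8 CPM (43.6 to 50.1) in TiCY, a log2 ratio of -1.87. In naive striatal astrocytes it had 8.90 CPM in KO and 61.3 CPM in TiCY (-2.25), and in naive qNSC2 8.74 and 61.3 CPM (-2.27). The KO groups with the highest Ifnar1 were naive aNSC (98.6 CPM over 7 cells, 98.9% of it in 1 cell), neurogenic striatal astrocytes at 2 days (49.2 CPM over 27 cells) and neuroblasts at 2 days (37.3 CPM over 76 cells, 43.8% in 1 cell). In the 61 KO striatal cells at 2 days with titles of set KO1, 28.9% of the Ifnar1 counts lay in 1 cell. The labels do not give the deleted part of each gene, so counts from outside it are no check of the knockout.

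Ifnar2 and Ifngr2, the partner chains, were not lower throughout. Ifnar2 had 63.8 CPM in KO and 37.0 in TiCY naive vSVZ astrocytes (log2 ratio 0.71), 15.1 and 25.7 CPM in striatal astrocytes (-0.61), and 41.5 and 40.2 CPM in qNSC2 (0.04). Ifngr2 had 10.7 CPM in KO and 17.8 in TiCY vSVZ astrocytes (-0.53), 10.3 and 34.7 CPM in striatal astrocytes (-1.38), and 20.7 and 4.94 CPM in qNSC2 (1.37). The last ratio rests on 1 KO cell with 64.7% of the counts.

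Among the kinases, Jak2 was lower in the KO in all 3 naive types. It had 19.5 CPM in KO and 54.6 in TiCY vSVZ astrocytes (log2 ratio -1.28), 23.7 and 48.6 CPM in striatal astrocytes (-0.90, short of the fold) and 15.6 and 59.1 CPM in qNSC2 (-1.63). In the KO, 48.5% of the Jak2 counts in vSVZ astrocytes and 67.3% in striatal astrocytes lay in 1 cell, and with equal weight per cell the vSVZ ratio was -0.95, short of the fold. Jak1 was lower in each as well, without passing the fold: 153 CPM in KO and 247 in TiCY vSVZ astrocytes (-0.68), 98.4 and 173 CPM in striatal astrocytes (-0.78), and 185 and 360 CPM in qNSC2 (-0.94). Tyk2 had log2 ratios of -0.04, 0.78 and 0.33.

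In all, 3, 3 and 4 of the 7 genes were past the fold in the naive vSVZ astrocytes, striatal astrocytes and qNSC2, against 18.1%, 26% and 37% of all genes at 5 CPM or more. Astrocyte markers (6 genes) summed to 21330 CPM in KO and 26270 in TiCY vSVZ astrocytes, 22330 and 26610 CPM in striatal astrocytes, and 12830 and 18140 CPM in qNSC2. Activated-stem-cell markers (6 genes) summed to 68.7 CPM in KO and 281 CPM in TiCY qNSC2, with 3 of them at 0 in the KO. Microglia markers (10 genes) summed to 9.59 to 19.9 CPM in KO and 38.5 to 45.7 CPM in TiCY over the 3 types, with 6 to 8 genes at 0 in the KO. Their part in the results was not tested.

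At 2 days after ischemia whole Glast sorts were compared, which mix cell types, so fewer cells of a type and less RNA per cell cannot be told apart. In the vSVZ sort Ifnar1 had 21.4 CPM (19.9 to 23) in KO and 84.7 CPM (81.7 to 87.8) in TiCY (log2 ratio -1.76), and Ifngr1 0.749 and 9.03 CPM (-1.29). These were the 2 members past the fold, beside 18.8% of all genes. Jak1 had 143 CPM in KO and 76.1 in TiCY (0.87), where astrocyte markers summed to 6106 CPM in KO and 2735 in TiCY and neuroblast markers to 2282 and 3911 CPM. In cells with more astrocyte than neuroblast marker counts, a choice made after the data were seen, Jak1 had 198 and 145 CPM (0.43), Ifnar1 10.9 and 88.0 CPM (-2.55) and Ifngr1 0.539 and 19.6 CPM (-2.15), in 138 of 228 KO and 59 of 176 TiCY cells. There Tyk2 was also past the fold, at 41.3 and 14.8 CPM (1.22).

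In the striatal sort at 2 days, Ifngr1 had 2.14 CPM in KO and 18.2 in TiCY (log2 ratio -1.70) and Ifnar2 97.2 CPM (91.4 to 103) in KO and 20.8 CPM (19.6 to 22.1) in TiCY (1.99). Ifnar1 had 21.4 CPM in KO and 33.1 in TiCY (-0.53), short of the fold. The titles split these KO cells into KO1 (61 cells) and KO2 (53 cells), which were summed as 1 letter but differed. Ifnar1 had 33.1 CPM (28.7 to 38.0) in KO1, level with the whole TiCY sort, and 5.68 CPM (3.71 to 8.32) in KO2. Ifngr1 had 3.57 CPM in KO1 and 0.218 in KO2, and Ifnar2 90.7 and 105.9 CPM, both members past the fold in each set. Of the Ifnar1 counts in KO1, 28.9% lay in 1 cell. The sets differed in composition, and in cells labelled astrocyte (37 of KO1, 45 of KO2) Ifnar1 had 20.6 and 4.97 CPM. With 2 of 7 members, the share was below the 40% of all genes past the fold. Astrocyte markers summed to 15590 CPM in KO and 4612 in TiCY and endothelial markers (7 genes) to 11.8 CPM, with 2 genes at 0, and 106 CPM. Their part was not tested.

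**Figure D4:**
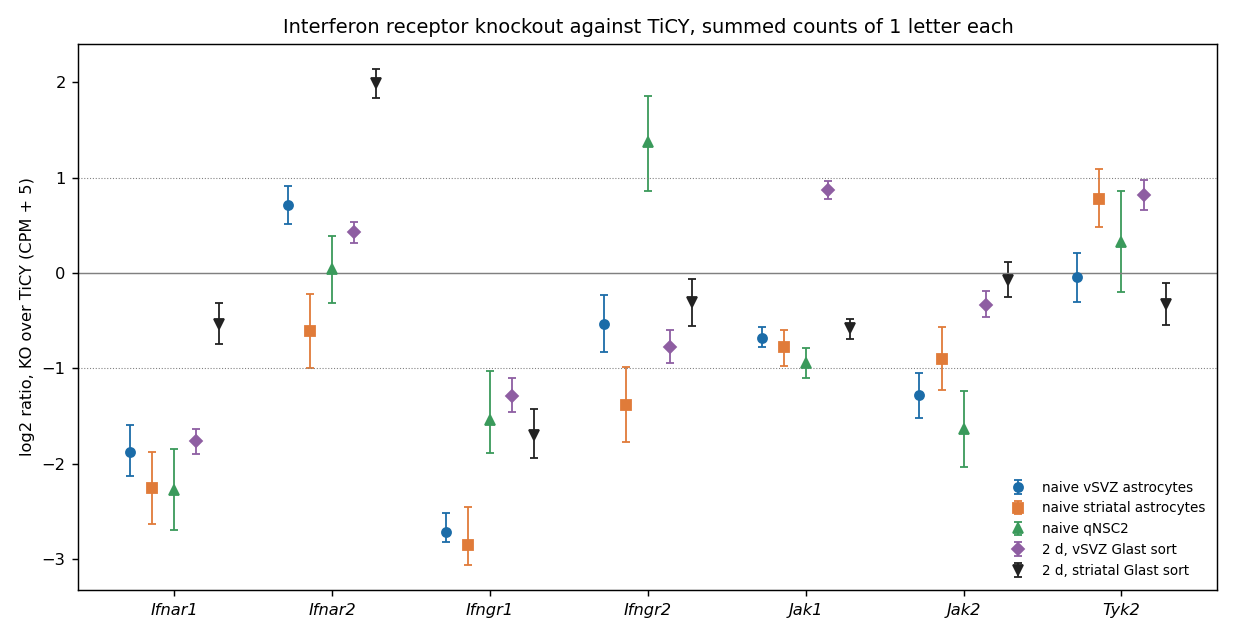
log2 ratio of KO over TiCY CPM, each with 5 CPM added (y axis), for the 7 genes (x axis) in 5 comparisons (symbols). Error bars are exact 95% Poisson counting intervals, dotted lines mark a ratio of 1 in size, and each genotype is 1 replicate letter. Ifngr1 lies below -1 in all 5 and Ifnar1 in 4 of 5, whereas Ifnar2 in the striatal sort at 2 days lies near 2.

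After ischemia in TiCY mice, Jak1 was the only member past the fold, and only in the vSVZ at 2 days. The whole vSVZ Glast sort (Glast is a surface protein of astrocytes and NSCs) held 76.1 CPM (73.3 to 79.1) at 2 days and 159 CPM (154 to 165) at 21 days, against 244 CPM (238 to 249.5) in naive cells, log2 ratios of -1.62 and -0.60. The sorts differed in composition. At 2 days astrocyte markers summed to 2735 CPM against 20240 in naive cells and neuroblast markers to 3911 against 680 CPM. In cells with more astrocyte than neuroblast marker counts (59 of 176 at 2 days, 172 of 188 naive), Jak1 had 145 CPM at 2 days and 266 CPM in naive cells (-0.85), short of the fold. Ifngr1 had 9.03 CPM in the whole sort at 2 days, against 21.7 in naive cells (-0.93), and 19.6 against 23.2 CPM (-0.20) in those cells.

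The other members of the vSVZ sort stayed within the fold at both times. Ifnar1 had 84.7 CPM at 2 days and 59.6 at 21 days, against 48.9 in naive cells. Ifnar2 had 54.6 and 38.3, against 39.8 CPM, and Ifngr2 31.4 and 28.5, against 16 CPM. Jak2 had 46.8 and 41.9, against 56.0 CPM, and Tyk2 17.6 and 35.5, against 18.3 CPM. At 2 days 1 of 7 members and 35.4% of all genes were past the fold, and at 21 days 0 of 7 and 16.7%.

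In the TiCY striatum 0 of 7 members passed the fold at 2 days or 21 days, against 43.2% and 21.3% of all genes. Jak1 had 170.0 CPM at 2 days and 113 at 21 days, against 173 CPM in naive cells. Ifnar1 had 33.1 and 40.7, against 61.3 CPM, Ifngr1 18.2 and 19.4, against 34.2 CPM, and Ifngr2 18.3 and 22, against 34.7 CPM. These 3 receptor chains were below naive at both times, with intervals apart. Ifnar2 had 20.8 and 49.4, against 25.7 CPM. Jak2 had 38.5 and 49.7, against 48.6 CPM, and Tyk2 27.6 and 23.1, against 23.6 CPM. Over the 2-day Glast cells of both regions, 18.2% of the Jak1 counts lay in 1 cell. The alternatives, among them leaving out the cell with the most Jak1 counts, put the vSVZ log2 ratio at 2 days no lower than -1.7. That cell was therefore in the striatal sort, and the striatal Jak1 value at 2 days rests in part on it.

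Some downstream genes in the striatum did pass the fold at 2 days, where 25.5% of all genes were higher and 17.7% lower. Of 8 signal transducers at 5 CPM or more, 5 were higher and none lower, with a median log2 ratio of 1.36: Stat2 (177 against 31.2 CPM, 2.33), Irf9 (34.7 against 10.1 CPM, 1.40), Stat3, Stat6 and Irf1. Of 12 interferon-stimulated genes 5 were higher (Usp18, Xaf1, Irgm1, Gbp2 and Gbp3) and none lower, and of 12 negative regulators 7 were higher, among them Socs3 and Usp18. At 2 days astrocyte markers summed to 4612 CPM against 26610 in naive cells, neuroblast markers to 336 against 68.0 CPM and endothelial markers to 106 against 5.16 CPM, and their part in these values was not tested. In the KO striatum at 2 days Stat2 had 64.1 CPM, against 177 in TiCY (-1.40), and Irf9 17.7, against 34.7 CPM (-0.81). In KO striatal astrocytes at 2 days, against naive ones, 3 of 7 transducers were higher, Irf9 among them, and 1 lower. Of all genes 20.9% were higher and 13.1% lower there. In KO qNSC2 5 of 8 were higher, with Stat2 and Irf9, and none lower, beside 19.9% of all genes higher. In KO vSVZ astrocytes 2 of 8 were higher and 3 lower, with Stat2, beside 17.6% and 20.3% of all genes. Naive and 2-day TiCY cells, like the genotypes, are different letters, so time and replicate cannot be told apart. Naive and 2-day KO cells share a letter but differ in genotype label as well as day.

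**Figure D5:**
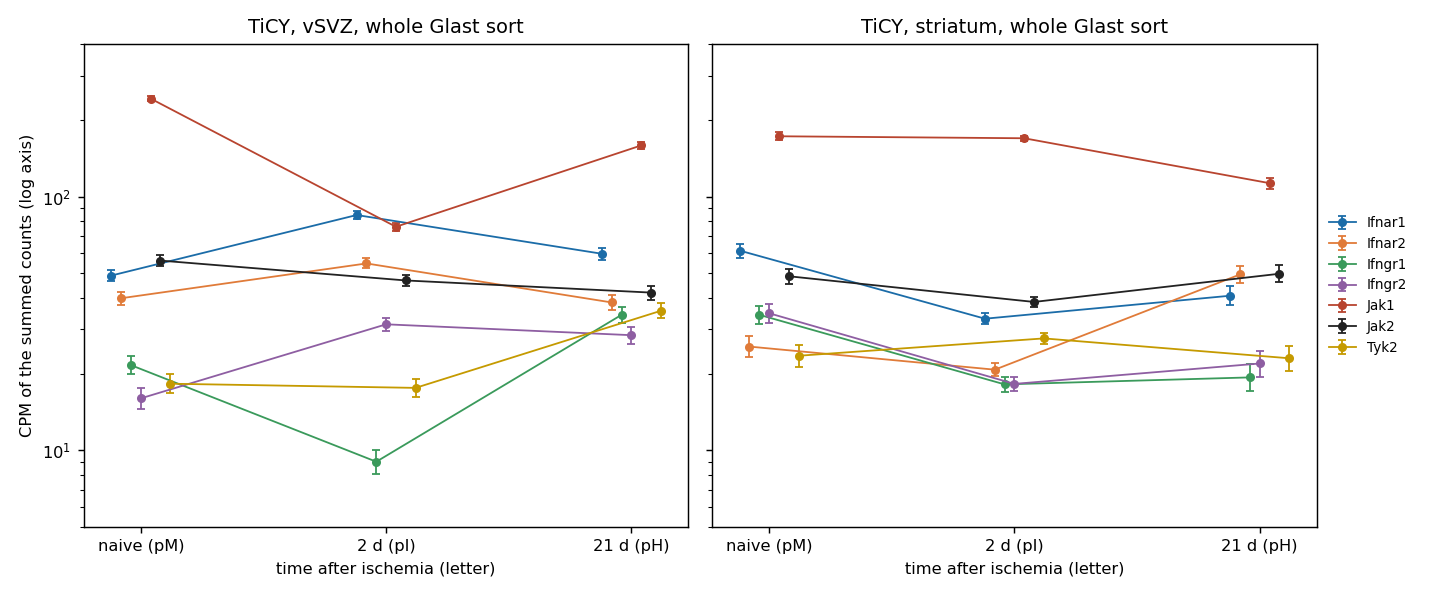
CPM of summed counts (y axis, log scale) of the 7 genes (colours) in whole Glast sorts of TiCY vSVZ (left) and striatum (right), in naive mice and at 2 and 21 days after ischemia (x axis). Each time is 1 replicate letter and error bars are exact 95% Poisson intervals. Jak1 in the vSVZ is lowest at 2 days (76.1 CPM). In the striatum Jak1 has 173 CPM in naive mice and 170.0 CPM at 2 days. Over both regions at 2 days, 1 cell of the striatal sort held 18.2% of the Jak1 counts.

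Within the KO letter, 2-day cells were set against naive cells of the same type. The naive cells are labelled IFN(A/G)R KO and the 2-day cells TiCY-IFN(A/G)R KO, so day and genotype label cannot be told apart. In vSVZ astrocytes 4 of 7 members were past the fold, beside 37.9% of all genes. Ifnar1 had 0.703 CPM at 2 days and 9.22 in naive cells (log2 ratio -1.32), Jak1 69.3 and 153 CPM (-1.09), Jak2 4.04 and 19.5 CPM (-1.44), and Tyk2 82.8 and 23.8 CPM (1.61). Ifnar1 at 2 days is 4 counts in 3 cells, and 65.2% of the Jak2 counts at 2 days lay in 1 cell. Of these only Tyk2 stayed past the fold under each of the 5 alternatives tried: with equal weight per cell Ifnar1 was at -0.71 and Jak1 at -0.86, and without the cell with the most counts Jak1 was at -0.97 and Jak2 at -0.75. Endothelial markers summed to 15.1 CPM at 2 days and 1.18 in naive cells, and astrocyte markers to 17130 and 21330 CPM. In striatal astrocytes 1 of 7 was past the fold, Ifnar2 with 103 CPM at 2 days and 15.1 in naive cells (2.43), beside 34% of all genes. There endothelial markers summed to 14.5 CPM at 2 days and 0.913 in naive cells and microglia markers to 41.7 and 9.59 CPM, and 4 of 5 quiescent NSC markers were past the fold, 2 in each direction. In qNSC2 0 of 7 were, beside 40.4%, and Jak1 had 271 CPM at 2 days and 185 in naive cells (0.54), where microglia markers summed to 62.3 and 19.9 CPM. The part of these markers was not tested.

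Across regions of naive WT mice, 1 member or none was past the fold in each comparison. In pE, where the place of the qNSC1 cells in the vSVZ rests on their titles, 12 striatal astrocytes and 20 qNSC1 cells had nearly equal Ifngr1 (99.7 and 99.9 CPM), Jak1 (261 and 244 CPM) and Ifnar1 (142 and 131 CPM). Ifnar2 alone was past the fold, with 9.38 CPM (7.58 to 11.5) in striatal astrocytes and 36.4 CPM (33.7 to 39.2) in qNSC1 (log2 ratio -1.52), beside 23.7% of all genes. Tyk2 had 30.04 CPM in striatal astrocytes and 13.8 in qNSC1 (0.90), and Jak2 49.2 and 29.3 CPM (0.66), with intervals apart but short of the fold. In the same cells 12 of 15 interferon-stimulated genes were higher and none lower in striatal astrocytes, beside 14.3% of all genes higher. Neuroblast markers summed to 1090 CPM in these striatal astrocytes and 25.3 in qNSC1, higher past the fold for 6 of 6, and astrocyte markers to 23930 and 35550 CPM. Their part was not tested.

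In TCF-Lef reporter mice 0 of 7 members were past the fold between cortical and striatal astrocytes, beside 24.8% of all genes. The log2 ratio furthest from 0 was that of Jak2, at 17.7 CPM in cortex and 37.9 in striatum (-0.92). Olfactory bulb cells (pF, 55 cells) had 0.108 CPM of Ifngr1, which is 1 count, against 5.99 CPM (4.10 to 8.46) in 34 vSVZ neuroblasts of pC and pD (log2 ratio -1.11), the only member past the fold beside 37.2% of all genes. The vSVZ counts came from 4 of 34 cells with 53.1% in 1 cell, and without the cell with the most counts the ratio was -0.64, short of the fold. Activated NSC and TAP markers summed to 137 CPM in bulb cells and 1590 in vSVZ neuroblasts, and region and letter cannot be told apart. Jak1 had 40.2 CPM in bulb cells and 26.4 in vSVZ neuroblasts (0.52), and Jak2 39.5 and 69.8 CPM (-0.75).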

How the data were processed

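RNA of single mouse cells was sequenced with Smart-seq3. Per the submitters' processing notes, reads were aligned with STAR and counted with featureCounts on GRCm38 (mm10), while versions, annotation and cell filters are not stated. The deposited values are raw read counts per gene and cell, whole numbers with no normalization by the authors. Of 2584 cells in the main table, 1981 matched a label and 603 did not and were not used. A second table of ischemia cells was not used. No doublet caller was run on these sorted, plate-based cells. Coordinates are 1-based, from GENCODE M21.

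The members and the pathway and marker lists were chosen with earlier results of these data known. All 7 members are named in every comparison. Of other genes, the text names the 3 most alike per member, list members past the test or fold, and Stat2 and Irf9. Some listed genes are not reported here.

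Each sum pooled the counts of 1 type or sort from 1 letter and needed at least 3 cells. This gave 22 sums of WT types (14915 genes), 12 of WT sorts (14348 genes) and 12 of naive TiCY and KO types (16009 genes). Sums were tested with the quasi-likelihood test of edgeR 4.0.16 in R 4.3.3 (filterByExpr, then TMM; Benjamini-Hochberg adjustment at 0.05), after a check on simulated data. P-values measure the spread between letters. Tests stayed within pA to pF or within pM and pJ, since gene annotation may have differed between these library sets. A letter is 1 or more mice per the labels, and sums of 1 letter deviated together from their type means (r above 0.1 in 38 of 38 pairs of types and 18 of 18 pairs of sorts), so the letter was also fitted as a block. In the naive fit letter and genotype coincide, and 6 of 30 pairs were above 0.1.

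Groups of 1 letter were compared by summed counts as CPM, log2 of CPM + 5 and exact 95% Poisson intervals. A count of 0 was bounded at 3 counts. PCR copies are not independent molecules, so intervals cover counting error only.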

Additional observations from a re-analysis of the deposited data

Results flagged for a closer look

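Among 21 sets of 4 or 5 WT replicates, 3 had a replicate far from the others by Dixon's criterion, which chance reaches in about 1 of 20 sets. Ifnar2 in qNSC2 was 16 CPM in pD, against 0 to 0.926 CPM in the other 3 replicates. Jak2 in qNSC1 was 62.0 CPM in pB, against 18.4 to 30.6 CPM in the other 4. Tyk2 in qNSC1 was 69.5 CPM in pD, against 14.4 to 25 CPM in the other 4. Of 63 pairs of like comparisons, 1 had opposite directions past the fold: Ifngr2 in KO over TiCY had a log2 ratio of -1.38 in naive striatal astrocytes and of 1.37 in naive qNSC2, a difference that was not tested. Without the 1 cell with the most Ifngr2 counts over both genotypes the qNSC2 ratio was 0.34.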

How the results depend on the processing

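Over 212 alternatives for 29 counts of members called or past the fold, 173 gave a count within 1.5 times the reported one, and in 270 alternatives for members called in some setting or past the fold no sign changed. Of 75 members of a comparison that were never called, 28 changed sign in at least 1 setting, such as Tyk2 in aNSC against qNSC2 (7 of 12). Among 6 types (0 called), DESeq2, the replicate block and pA, pB and pE alone each called 3, and sums of 5 or more cells 1; leaving out a letter gave 0 to 2. In neuroblasts against qNSC1 (2 called), the block gave 3, no filter on low counts and pC with pD alone gave 0, and leaving out a letter 0 to 2. In oligodendrocytes against qNSC1 (0 called), DESeq2, the block, sums of 5 or more cells and pA, pB and pE alone gave 1, and leaving out a letter 0 to 1. In NB against NSC (1 called), DESeq2 gave 2, the block 3, and pA with pB alone and leaving out any letter 0. In OLIGO against NSC (0 called), DESeq2 and the block gave 1. The block raised the pairs of types passed over all members to 9 of 105 (3 without it) and changed no count of members beyond those given above. Over all genes, the lowest and highest counts called under the alternatives were 636 and 4952 among 6 types (3680 reported), 197 and 2946 in neuroblasts against qNSC1 (1846), 186 and 2495 in oligodendrocytes against qNSC1 (1636), 369 and 2979 in NB against NSC (1690), and 273 and 1883 in OLIGO against NSC (875). They were 1600 and 3738 in naive neuroblasts against qNSC2 (1600), 0 and 286 in qNSC2 against qNSC1 (12), 0 and 974 in aNSC against qNSC2 (29), 0 and 353 in neuroblasts against TAPs (14), 0 and 467 in ASTRO against NSC (13), and 2 and 107 in naive qNSC2 against vSVZ astrocytes (2). RLE in place of TMM factors moved the median of all genes by over 0.1 in qNSC2 against qNSC1 alone (by 0.11). For groups of 1 letter, weighting cells equally gave 5 for KO naive striatal astrocytes (3), and 2 for TiCY vSVZ at 2 days (1) and KO striatal astrocytes at 2 days (1). Adding 1 CPM gave 2 for TiCY vSVZ at 2 days, KO striatal astrocytes at 2 days and pE (1), and 1 for KO qNSC2 at 2 days and the TCF-Lef cells (0). Without the cell with the most counts, TiCY vSVZ at 2 days, pE and the bulb gave 2 (1), TiCY striatum at 21 days 1 (0) and KO striatal astrocytes at 2 days 3 (1). Astrocyte-marker cells gave 0 for TiCY vSVZ at 2 days. The causes were not tested.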
